A study of Mus musculus with 2 samples.

Results

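Glutamate receptors, the vesicular transporters that load glutamate and the auxiliary subunits that travel with the receptors were followed in the newborn mouse midbrain as 37 genes. The genes were found by mapping the Ensembl gene identifiers of the deposited tables to gene symbols, and all 37 were present among 43346 Ensembl genes. The study sequenced RNA from whole midbrain of healthy B6NTac;B6NCrl/Lap mice on the day of birth (0 days), with males and females pooled. It holds 1 group of 2 libraries from separate isolates, replicate 1 from 15 animals and replicate 2 from a pool whose size the labels do not give. RNA longer than 200 nucleotides was depleted of ribosomal RNA and read in pairs in a stranded layout. With 1 group there was no treatment, genotype or time to compare, so the questions are which of these genes the tissue expressed, at what level, in which transcript form, and how closely the isolates matched.

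Glutamate is the main excitatory transmitter of the brain. AMPA, NMDA and kainate receptors are ion channels built of several subunits, delta receptors resemble them but act largely as synaptic organizers, and the metabotropic receptors signal through G proteins. TARPs (products of Cacng genes) and cornichons (Cnih genes) bind AMPA receptors and change their traffic and gating, Neto proteins do so for kainate receptors, and vesicular transporters of the Slc17 family mark neurons that release glutamate.

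Levels are TPM, a count divided by transcript length and scaled to the same total in each library, and are given as mean ± SD (n = 2). The libraries held 46685706 and 72779229 estimated counts. Deposited TPM was not level between them: the log2 ratio of replicate 2 over 1 had a median of -0.28 among genes with 10 or more counts in all, and each SD of TPM includes that offset. Of 7 midbrain transcription factor markers all 7 reached 1 TPM in both libraries, led by Meis2 at 26.4 ± 0.820 TPM, Otx2 at 17.1 ± 1.72 and Tcf7l2 at 15.2 ± 4.19, and their summed level was 100.5 TPM in replicate 1 and 89.9 in replicate 2. None of 8 hindbrain markers and none of 4 retina markers did so. Markers of choroid plexus, hindbrain and cerebellum differed most between the isolates: their summed TPM was 16.9, 0.94 and 17.4 in replicate 1 and 168, 7.51 and 30.4 in replicate 2. In whole tissue, fewer cells of a type and less RNA per cell cannot be told apart.

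Most of the glutamate genes were expressed, at levels that spread from 0 TPM for Grm6 to 133 TPM for Cnih2. A gene counted as detected at 1 TPM or more in both libraries, and 32 of the 37 were, against 27.7% of all Ensembl genes and 53.8% of protein-coding genes. The genes below that level were Grin2c, Grin3b, Grm6, Slc17a7 and Slc17a8. Grin2c at 0.680 ± 0.0849 stood just below the threshold, and the lowest detected member, Grin2a, stood at 2.49 ± 0.658. The detected count did not rest on the exact threshold: 33 members passed 0.5 TPM and 32 passed 2 TPM. Rescaling TPM to protein-coding genes alone multiplied each value by 4.47 in replicate 1 and 5.06 in replicate 2, and 35 members then passed 1 TPM. Of the members 21 lay above 7.32 TPM, the median of 11551 detected protein-coding genes.

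**Figure D1:**
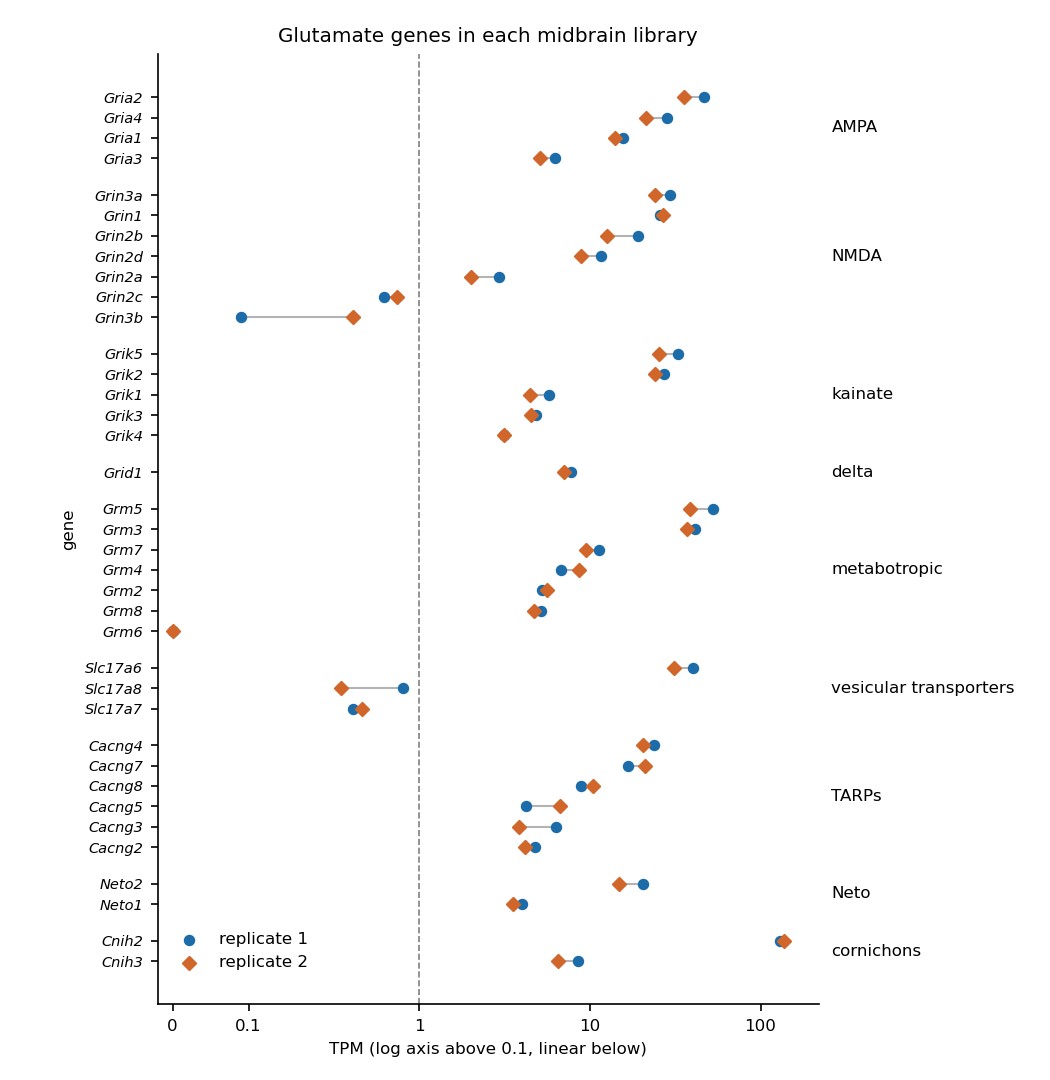
TPM of each of the 37 glutamate genes in replicate 1 (circles) and replicate 2 (diamonds), grouped by role, on an axis that is logarithmic above 0.1 TPM and linear below; the dashed line is the detection threshold of 1 TPM. The 5 genes left of the line are Grin2c, Grin3b, Grm6, Slc17a7 and Slc17a8, and Cnih2 stands apart at the right in both libraries.

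Among the AMPA receptor subunits, Gria2 led, followed by Gria4, Gria1 and Gria3, with no overlap between neighbours over the libraries. Gria2, whose edited form makes the channel poorly permeable to calcium, stood at 46.8 TPM in replicate 1 and 35.8 in replicate 2 (41.3 ± 7.79). Gria4 stood at 28.3 and 21.3 TPM, and Gria1, the subunit best known from synaptic plasticity in the forebrain, at 15.7 and 14.0. Gria3 was the lowest at 6.22 and 5.08 TPM. The make-up of the family was close to constant between the isolates: Gria2 held 47.6% ± 0.890 of the summed AMPA subunit TPM, Gria4 28.6% ± 0.835, Gria1 17.2% ± 1.54 and Gria3 6.54% ± 0.182. Gria2 exceeded Gria1 by a log2 ratio of 1.46 ± 0.16 and Gria3 by 2.84 ± 0.07, at least 2-fold in each library. With transcripts annotated as coding only, the ratio over Gria1 fell to 0.24, under 2-fold. Over all transcripts Gria2 exceeded Gria4 in both libraries by 0.74 ± 0.01, which is under 2-fold.

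**Figure D2:**
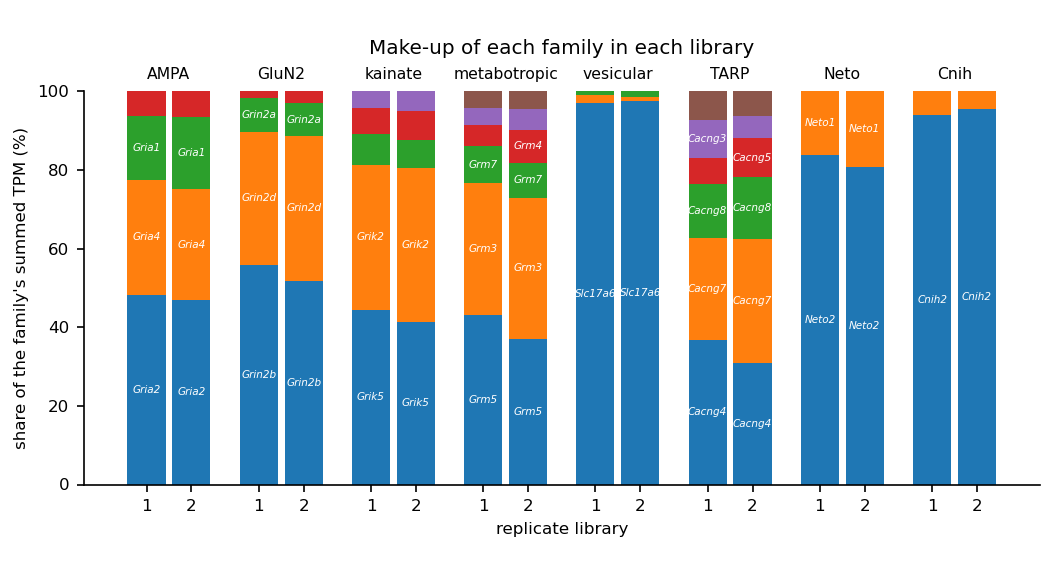
Share of each gene in the summed TPM of its family (percent, stacked to 100), for replicate 1 and replicate 2 side by side, with genes ordered from the bottom by mean TPM. The same gene leads in both libraries except among the TARPs, where Cacng4 leads in replicate 1 and Cacng7 in replicate 2; the leaders include Gria2 at 47.6% ± 0.890 of AMPA subunits and Slc17a6 at 97.3% ± 0.262 of vesicular transporters.

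AMPA subunit transcripts carry 1 of a pair of alternative exons called flip and flop, which encode part of the ligand-binding domain and set how fast the channel desensitizes. The exons are shown because the transcript shares below turn on them. All 8 are 115 bases long and sit in the coding sequence. In each gene flop lies upstream of flip in the direction of transcription. The letters are from the transcripts of GENCODE release M21 on mm10, written 5′ to 3′ on the gene's own strand. Capitals mark the positions at which the flip and flop exons of the same gene differ. There are 36 such positions in Gria1 and in Gria2, 32 in Gria3 and 31 in Gria4, so that the paired exons are 68.7%, 68.7%, 72.2% and 73.0% identical.
Gria1 flip, chr11:57310608-57310722, plus strand: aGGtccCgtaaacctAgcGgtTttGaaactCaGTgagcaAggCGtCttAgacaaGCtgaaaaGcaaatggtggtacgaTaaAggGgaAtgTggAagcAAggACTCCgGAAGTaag
Gria1 flop, chr11:57309769-57309883, plus strand: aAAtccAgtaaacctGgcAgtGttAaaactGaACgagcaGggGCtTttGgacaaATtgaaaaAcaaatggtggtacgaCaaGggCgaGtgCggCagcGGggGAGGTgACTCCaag
Gria2 flip, chr3:80690404-80690518, minus strand: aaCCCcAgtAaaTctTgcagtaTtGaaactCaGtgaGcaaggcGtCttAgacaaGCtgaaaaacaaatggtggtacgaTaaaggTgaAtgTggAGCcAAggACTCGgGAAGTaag
Gria2 flop, chr3:80691320-80691434, minus strand: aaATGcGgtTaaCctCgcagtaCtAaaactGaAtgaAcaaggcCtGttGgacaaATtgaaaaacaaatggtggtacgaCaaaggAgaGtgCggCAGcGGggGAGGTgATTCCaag
Gria3 flip, chrX:41669501-41669615, plus strand: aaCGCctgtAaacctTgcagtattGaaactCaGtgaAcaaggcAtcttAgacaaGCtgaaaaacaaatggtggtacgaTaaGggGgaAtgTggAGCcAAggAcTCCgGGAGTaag
Gria3 flop, chrX:41654810-41654924, plus strand: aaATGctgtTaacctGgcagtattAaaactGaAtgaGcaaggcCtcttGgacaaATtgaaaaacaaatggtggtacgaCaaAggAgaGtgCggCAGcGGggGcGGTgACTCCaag
Gria4 flip, chr9:4427030-4427144, minus strand: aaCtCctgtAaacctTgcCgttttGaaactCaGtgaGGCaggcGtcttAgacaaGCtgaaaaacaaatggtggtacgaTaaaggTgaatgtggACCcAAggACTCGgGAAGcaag
Gria4 flop, chr9:4432773-4432887, minus strand: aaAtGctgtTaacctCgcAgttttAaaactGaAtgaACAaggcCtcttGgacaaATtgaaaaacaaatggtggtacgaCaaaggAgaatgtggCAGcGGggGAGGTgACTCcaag

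The balance of flip and flop differed between the AMPA genes and, for Gria1, between the isolates. The flip share is the TPM of transcripts with flip over that of transcripts with flip or flop, leaving out transcripts that hold both. For Gria3 it was 100% in replicate 1 and 96.4% in replicate 2, and the flip form Gria3-201, at 4.07 and 3.97 TPM, carried 65.4% and 78.3% of the gene. Gria3-206, which holds both exons and is left out of the share, carried 13.3% and 3.07%. Gria2 had flip shares of 35.1% and 39.9%, and Gria4 of 45.7% and 43.1%. Flop thus had the higher estimate among the transcripts of both genes that hold 1 of the exons. Transcripts with neither exon held more of each gene than flop did. For Gria4 the deposited credibility bounds of TPM overlapped in both libraries. The flop form Gria4-201 had 4.45 to 6.07 in replicate 1 and 3.91 to 5.07 in replicate 2. The flip form Gria4-202 had 3.81 to 5.44 and 2.85 to 3.97. For Gria1 the flip share was 74.8% in replicate 1 and 43.6% in replicate 2. The leading Gria1 transcript changed with it: the flip form Gria1-201 carried 52.4% of the gene in replicate 1 and 24.5% in replicate 2, and the flop form Gria1-202 carried 25.2% and 56.4%. The deposited credibility bounds of TPM for Gria1-201, 7.33 to 8.85 in replicate 1 and 2.90 to 3.97 in replicate 2, did not overlap. The transcripts also differ at their ends, so these shares describe whole annotated transcripts and not the exon alone. For Gria2 the choice of unit mattered most, since the flop transcript Gria2-201 is 10371 bases long and the flip transcript Gria2-202 is 4026: by estimated counts the flip share of Gria2 was 18.2%, against 37.5% by TPM.

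A large part of Gria2 and Gria4 lay in transcripts with neither exon. For Gria2 that part was 51.3% and 58.7% of the gene's TPM (55.0% ± 5.21), in 5 transcripts annotated as retained introns, of which Gria2-206 carried 24.9% and 22.5% of the gene and Gria2-204 carried 19.2% and 13.2%. Coding transcripts alone put Gria2 at 17.9 TPM, against 41.3 for all transcripts, and moved its share of the AMPA family from 47.6% to 28.7%, below Gria4 at 40.2%. For Gria4 the part was 64.7% and 62.8%, all in Gria4-203, a transcript of 2338 bases that is annotated as coding. The coding sum thus keeps the Gria4 transcript with neither exon and drops those of Gria2. Among coding transcripts with 1 of the exons, Gria2 was the higher in both libraries. Gria2-201 stood at 14.07 and 8.46 TPM and Gria2-202 at 7.60 and 5.61. Gria4-201 stood at 5.42 and 4.51 TPM and Gria4-202 at 4.56 and 3.42. Gria3 had 21.3% and 15.9% in transcripts without either exon, and Gria1 had none. By estimated counts the part fell to 34.4% for Gria2 and 41.3% for Gria4. Libraries of total RNA also hold unspliced RNA, and its part in these shares was not tested.

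**Figure D3:**
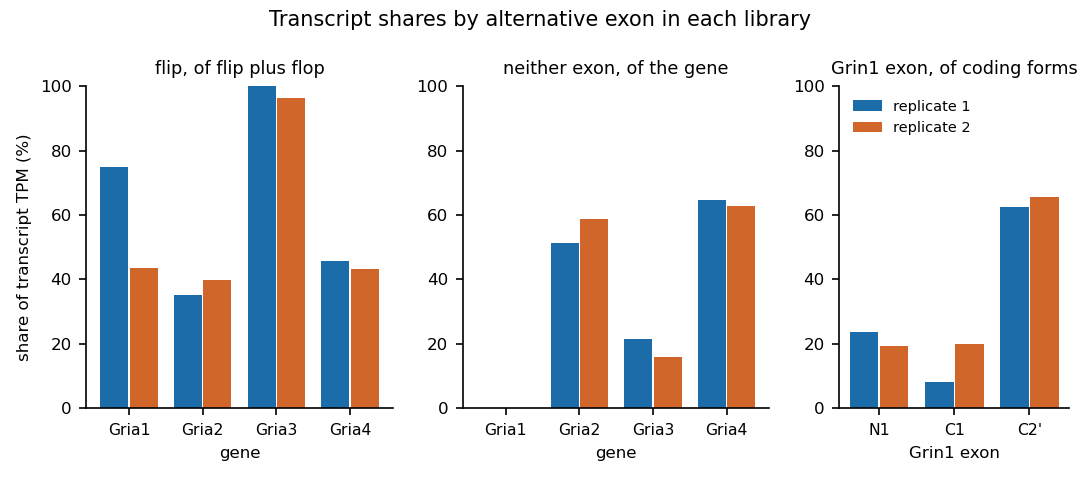
Shares of transcript TPM (percent) in replicate 1 and replicate 2. Left, flip transcripts among those with flip or flop; centre, transcripts of the gene with neither exon; right, Grin1 coding transcripts with the N1 exon, the C1 exon or the short last exon (C2'). The libraries lie far apart for Gria1 flip, at 74.8% and 43.6%, and close together for Gria4, at 45.7% and 43.1%.

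NMDA receptors need the obligatory subunit encoded by Grin1 together with subunits of the Grin2 or Grin3 genes. Grin1 stood at 25.6 TPM in replicate 1 and 26.8 in replicate 2 (26.2 ± 0.856), and Grin3a at 29.5 and 24.0 (26.7 ± 3.90), so that their ranges overlapped and neither led in both. Transcripts annotated as processed, without a coding sequence, held 33.8% and 30.3% of Grin3a and 11.6% and 14.4% of Grin1. With transcripts annotated as coding only, Grin1 averaged 22.8 TPM and Grin3a 18.1, so the near tie holds for all transcripts only. Grin3a encodes a subunit that lowers calcium entry and is known from the immature brain. Among the Grin2 genes Grin2b held 53.8% ± 2.79 of the summed TPM, Grin2d 35.3% ± 2.02, Grin2a 8.46% ± 0.128 and Grin2c 2.43% ± 0.897. Grin2b, the subunit typical of young neurons, stood at 19.3 and 12.5 TPM. The 591-base transcript Grin2b-206 carried 17.85% of the gene in replicate 1 and 0.82% in replicate 2. Over transcripts of at least 1000 bases only, Grin2b averaged 14.1 TPM and its share was 56.7%. Grin2d, known from brainstem and midbrain early in life, stood at 11.7 and 8.86 TPM, lower than Grin2b in both libraries by a log2 ratio under 2-fold (0.61 ± 0.16). A 648-base Grin2d transcript, without a match in the annotation that gives the transcript classes, carried 35.2% and 15.2% of the gene. With transcripts annotated as coding only, Grin2d averaged 7.54 TPM, against 10.3 for all transcripts, and its share was 29.2%. The log2 ratio of Grin2b over Grin2d then averaged 1.03, still not 2-fold in both libraries. Grin2a, which rises after birth in many regions, stood at 2.95 and 2.02 TPM, 6.15-fold below Grin2b. Grin2c, best known from the cerebellum, stood at 0.620 and 0.740 TPM. The level of Grin1 against the summed Grin2 genes had no common direction: the log2 ratio was -0.43 in replicate 1 and 0.15 in replicate 2.

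Grin3b, the motor neuron relative of Grin3a, stood at 0.0900 TPM in replicate 1 and 0.410 in replicate 2, from 21 and 73 estimated counts. Exact Poisson intervals (95%, counting error only) reached up to 32.1 counts in replicate 1 and ran from 57.2 to 91.8 in replicate 2. The exons of Grin3b overlap over 1059 of 3296 bases (32.1%) with Tmem259 on the opposite strand, which stood at 28.5 and 31.5 TPM. Whether the counting used strand is not given in the sources used here, so reads of the genes may not be fully separated. The Grin3b transcript that led was also different in each library, Grin3b-201 with 100% of the gene in replicate 1 and Grin3b-203 with 49.3% in replicate 2.

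Grin1 is spliced at an exon in its amino-terminal domain, N1, and at a pair of carboxy-terminal sites, the C1 exon and the last exon, whose shorter form encodes the alternative end called C2'. The N1 exon has 63 bases and the C1 exon 111, and both lie within the coding sequence on the minus strand of mm10. They are shown whole, without capitals, because the share of each could be read from the annotated transcripts.
Grin1 N1, chr2:25311343-25311405, minus strand: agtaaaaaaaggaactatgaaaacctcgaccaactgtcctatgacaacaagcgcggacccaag
Grin1 C1, chr2:25294438-25294548, minus strand: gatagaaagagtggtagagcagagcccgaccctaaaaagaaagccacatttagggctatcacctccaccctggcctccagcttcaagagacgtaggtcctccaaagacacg

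Most coding Grin1 transcripts, by TPM, lacked both exons. Over 8 coding Grin1 transcripts that share the same 3′ end, those with N1 held 23.5% of TPM in replicate 1 and 19.3% in replicate 2 (21.4% ± 3.01). Those with C1 held 8.18% and 20.1%, a difference of more than 2-fold between the isolates. Transcripts with the short last exon, which is 356 bases shorter than the long form, held 62.5% and 65.5% (64.0% ± 2.13). The leading form, Grin1-205, has neither N1 nor C1 and ends in C2', and it carried 52.2% and 51.0% of the gene. Grin1-203, with N1 but not C1, stood at 4.24 TPM in replicate 1 and 0.0400 in replicate 2.

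Kainate receptor genes fell into a high and a low class. Grik5 stood at 32.7 and 25.5 TPM (29.1 ± 5.09) and Grik2 at 27.2 and 24.1 (25.6 ± 2.20); Grik5 was the higher in both libraries although the ranges overlapped. Grik2 encodes a subunit that forms channels by itself, and Grik5 a high-affinity subunit that needs such a partner. Grik5 held 44.4% and 41.3% of the family's TPM and Grik2 held 36.95% and 39.07%. Grik1 at 5.73 and 4.43 TPM and Grik3 at 4.83 and 4.50 overlapped, and Grik4, the other high-affinity subunit, was the lowest at 3.16 and 3.15. Grik2 exceeded Grik1 by a log2 ratio of 2.32 ± 0.13 and Grik3 by 2.43 ± 0.05, and Grik5 exceeded Grik4 by 3.15 ± 0.25. The high-affinity pair summed to 0.907 times the other subunits on average. When only transcripts annotated as coding were summed, the ratio for Grik2 over Grik1 became -0.045 and that for Grik2 over Grik3 became 0.065, because 6 Grik2 transcripts, with 81.2% and 80.6% of the gene's TPM, have no match in the newer annotation that gives the classes. Grid1, the delta receptor gene measured here, stood at 7.72 and 7.06 TPM (7.39 ± 0.467).

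Metabotropic receptors were led by Grm5 and Grm3. Grm5, which couples to phospholipase C, stood at 52.6 and 38.7 TPM (45.7 ± 9.84), the highest receptor gene in both libraries, and Grm3, which inhibits adenylyl cyclase and is also made by astrocytes, at 41.1 and 37.2 (39.1 ± 2.79). Their ranges overlapped, and the log2 ratio of Grm5 over Grm3 was 0.36 in replicate 1 and 0.06 in replicate 2. They held 40.1% ± 4.19 (Grm5) and 34.6% ± 1.42 (Grm3) of the family. Grm2, the closest relative of Grm3, was 7.11-fold lower, at 5.25 and 5.58 TPM. The group III receptors Grm7, Grm4 and Grm8, which act mainly at nerve terminals, stood at 10.4 ± 1.30, 7.71 ± 1.31 and 4.94 ± 0.311 TPM. Grm7 was above Grm8 by log2 ratios of 1.12 and 1.00, the latter a little under the 2-fold line, and above Grm4 by 0.74 and 0.14.

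Grm6, the receptor by which ON bipolar cells of the retina sense glutamate, had 0 counts in both libraries. A count of 0 allows up to 3 counts, or 0.0651 CPM (counts scaled by the library's total) in replicate 1 and 0.0417 in replicate 2, for counting error only; the exact two-sided 95% Poisson interval used for the other low members reaches 3.69 counts. Of the 4 retina and eye markers the summed level was 0.490 TPM in replicate 1 and 0.590 in replicate 2. Of Grm5, Grm5-202 carried 49.8% and 49.4% and Grm5-201 carried 39.7% and 41.6%. A further Grm5 transcript, 96 bases longer than Grm5-201 and without a match in the newer annotation, carried 6.99% and 8.66%. Of Grm7, Grm7-202 carried 88.3% and 85.9%.

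Of the vesicular transporters, nearly all RNA was Slc17a6, which encodes VGLUT2, the transporter typical of subcortical neurons. Slc17a6 stood at 40.3 and 31.1 TPM and held 97.1% and 97.5% of the summed TPM. Slc17a7, which encodes VGLUT1 of cortical and cerebellar granule neurons, stood at 0.410 TPM from 84 counts (95% Poisson interval 67.0 to 104) and at 0.460 TPM from 174 counts (149 to 202). Slc17a8, which encodes VGLUT3, stood at 0.800 and 0.350 TPM from 241 and 206 counts, so its range overlapped that of Slc17a7. Slc17a8 was the member with the lowest ratio between the libraries, at -0.83 on scaled counts. Of 8 cortex and hippocampus markers 4 were detected, led by Bcl11b at 11.1 ± 0.962 TPM, Prox1 at 2.72 ± 0.983 and Neurod6 at 1.54 ± 0.417, and their part in the Slc17a7 level was not tested.

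The TARP genes had no single leader. Cacng4 at 23.8 and 20.6 TPM and Cacng7 at 16.8 and 21.2 overlapped, and the order of these genes reversed between the libraries. Below them came Cacng8 at 8.91 and 10.5 TPM, then Cacng5 at 4.25 and 6.68, Cacng3 at 6.30 and 3.85 and Cacng2, the gene of stargazin, at 4.75 and 4.15, with overlapping ranges among the last 3. Cacng4 exceeded Cacng8 by log2 ratios of 1.41 and 0.97, and Cacng7 exceeded Cacng5 by 1.80 ± 0.22. Cacng2 and Cacng3 differed in opposite directions, by -0.40 and 0.11. The shares of the family were 33.8% ± 4.22 for Cacng4, 28.8% ± 4.07 for Cacng7, 14.7% ± 1.33 for Cacng8, 8.27% ± 2.42 for Cacng5, 7.74% ± 2.81 for Cacng3 and 6.77% ± 0.798 for Cacng2. Transcripts under 1000 bases held 39.0% of Cacng3 in replicate 1 and 10.4% in replicate 2.

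The cornichon gene Cnih2 was the highest of all 37 members, at 130 and 137 TPM (133 ± 4.47), well clear of Grm5. Its relative Cnih3 stood at 8.56 and 6.54 TPM, 17.6-fold lower. Cnih2 exceeded the summed AMPA subunits by log2 ratios of 0.43 and 0.84, while the summed TARPs were below them by -0.58 and -0.19. Cnih2 was annotated with 1 transcript, from 9563 and 18548 estimated counts. Of Cnih3, the 602-base transcript Cnih3-203 held 31.1% in replicate 1 and 0% in replicate 2. Neto2 stood at 20.5 and 14.9 TPM and Neto1 at 3.99 and 3.56, a log2 ratio of 2.18 ± 0.21, and together they held less than the summed kainate subunits by -1.59 and -1.74.

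**Figure D4:**
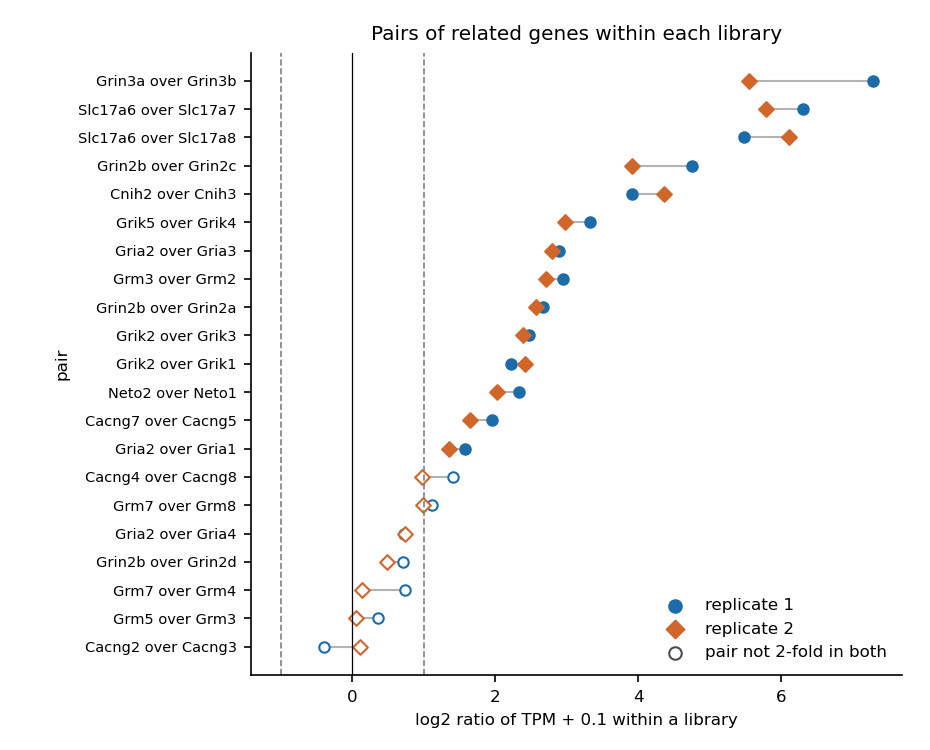
Log2 ratio of TPM + 0.1 for 21 pairs of related genes, each within replicate 1 (circles) and replicate 2 (diamonds); dashed lines mark a 2-fold difference and open symbols mark pairs that were not 2-fold the same way in both libraries. Filled pairs run from Gria2 over Gria1 at 1.46 to Grin3a over Grin3b at 6.42 on average, and Cacng2 over Cacng3 lies on both sides of 0.

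Over 21 pairs of related members, 14 differed by at least 2-fold in the same direction in both libraries. The gene named first was the higher in all 14. The pairs were chosen with earlier results of these data known, and no share over other gene pairs was computed, so the count has no reference. The pairs that did not reach 2-fold in both were Gria2 with Gria4, Grin2b with Grin2d, Grm5 with Grm3, Grm7 with Grm4 and with Grm8, Cacng2 with Cacng3, and Cacng4 with Cacng8. For 6 of these 7 the direction was the same in both libraries. The largest ratios lay against the genes below 1 TPM: Grin3a over Grin3b by 6.42 ± 1.22, Slc17a6 over Slc17a7 by 6.05 ± 0.36 and over Slc17a8 by 5.80 ± 0.44, and Grin2b over Grin2c by 4.33 ± 0.59. The pseudocount of 0.1 TPM limits how large these can be. No p-value is given, since the design holds 1 group of 2 libraries.

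Once counts were scaled by the trimmed-mean (TMM) method, the isolates matched about as closely for these genes as for other well-counted genes. Of the 36 members whose counts summed to 10 or more, 1 differed by 2-fold or more, against 17.0% of 18554 genes. The median size of the log2 ratio was 0.15 for the members and 0.28 for all genes. Many of those genes had low counts, so the closer comparison is at summed counts of 1000 or more: of 32 such members 0 differed by 2-fold, against 0.622% of 10282 genes, and the median sizes were 0.14 and 0.18. The member past 2-fold was Grin3b, at a log2 ratio of 1.18.

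Among well-counted members Cacng5 and Cacng7 had the largest log2 ratios between the libraries. Cacng5 had 1113 counts in replicate 1 and 3242 in replicate 2, a scaled log2 ratio of 0.94, and Cacng7 had 2479 and 5789, a ratio of 0.62. Both lay above 0.44, the 95th percentile of the 4304 genes with summed counts from 3000 to 10000. Cnih2, at 0.35, lay just above the 95th percentile of its own range of counts, 0.34. These 3 of 36 members were outside the middle 90% of genes of like counts, against 9.95% of all genes. Cerebellar and hindbrain markers were also higher in replicate 2: Barhl1 stood at 7.88 and 9.02 TPM, Car8 at 2.92 and 5.79 and Pcp2 at 2.22 and 6.08, Hoxa5 had 2 counts and 432, Hoxb3 had 46 and 419, and Hoxd3 had 0 and 174. The 7 cerebellar markers summed to 17.4 TPM in replicate 1 and 30.4 in replicate 2, the 8 hindbrain markers to 0.940 and 7.51, and Gabra6, Hoxd3 and Hoxa3 were at 0 counts in replicate 1. Of the 5 oligodendrocyte precursor markers all 5 were higher in replicate 2 on scaled counts, from a log2 ratio of 0.16 for Pdgfra and 0.33 for Cspg4 to 0.42 for Olig1, 0.77 for Olig2 and 0.86 for Gpr17, and their summed TPM was 61.0 and 69.0. Of the 6 astrocyte and radial glia markers, only Fabp7 was lower in replicate 2 on scaled counts, at -0.46. The others were higher, at 0.03 for Slc1a2, 0.20 for Aldh1l1, 0.25 for Slc1a3, 0.48 for Aqp4 and 0.97 for Gfap. The summed TPM of all 6 was 315.7 and 230.9, of which Fabp7 held 218 and 131. The part of these cell types in the ratios of Cacng5, Cacng7 and Grin3b was not tested.

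**Figure D5:**
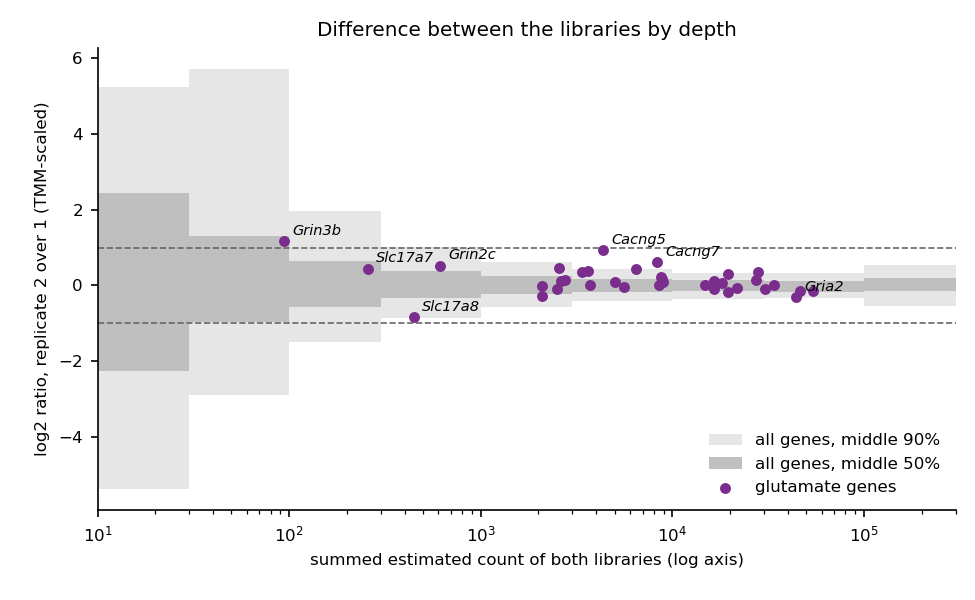
Log2 ratio of replicate 2 over replicate 1 on TMM-scaled counts against the summed estimated count (log axis), for the 36 glutamate genes with counts (points), over bands that hold the middle 50% and 90% of all genes of like count. Dashed lines mark 2-fold; Grin3b, at 1.18, is past the line, and Cacng5, at 0.94, stands highest among members with a summed count of at least 1000.

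Of the 26 members annotated with several transcripts, 25 had counts, and 23 of them had the same leading transcript in both libraries, the exceptions being Gria1 and Grin3b. For 6 members, Gria1, Gria2, Grin2b, Grin3a, Grik4 and Grm5, at least 2 transcripts each carried 20% or more in both libraries. The same shares over all genes with several transcripts were not computed, so these counts describe the members only and cannot be called high or low. Grin2b was divided mainly between the 23640-base Grin2b-201, with 59.0% and 65.4%, and Grin2b-202, with 22.2% and 30.3%. The short Grin2b-206 carried a further 17.85% and 0.82%. Grin3a was divided between the coding Grin3a-201, with 56.2% and 63.1%, and Grin3a-203, with 31.6% and 29.3%, which is annotated as a processed transcript without a coding sequence. Grik4-201 carried 55.7% and 70.8% and Grik4-202 carried 44.3% and 29.2%. The same leader did not mean the same share: Grin2a-202 carried 87.9% of Grin2a in replicate 1 and 53.1% in replicate 2, where Grin2a-201 carried 38.1% against 0.07%. Grin2d-201 likewise carried 64.8% and 84.9% of Grin2d, Grm4-201 85.8% and 66.2% of Grm4, Grm8-202 71.2% and 51.5% of Grm8, Cacng3-201 60.9% and 89.6% of Cacng3, and Cnih3-201 67.2% and 100% of Cnih3. The leader of Grik2, a transcript without a match in the newer annotation, carried 38.1% and 33.7%. The leaders not yet named held over 75% in both libraries: Grin2c-201, Grik1-201, Grid1-201, Slc17a8-201, Cacng4-201, Cacng5-201 at 75.7% and 92.9%, and Cacng8-201 at 78.5% and 86.2%. The 11 members annotated with 1 transcript have no such share to compare.

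Other genes of glutamate transmission were expressed alongside. Of 13 genes for synthesis and clearance 12 were detected, among them Glul, glutamine synthetase, at 63.7 ± 4.38 TPM, Got2 at 44.3 ± 4.51 and Glud1 at 38.8 ± 2.98. The exception was Gls2 at 0.670 ± 0.170. All 22 scaffold and trafficking genes were detected, led by Dlg4, which encodes PSD-95, at 52.9 ± 0.269, Dlgap4 at 42.6 ± 3.54, Camk2b at 41.3 ± 0.205 and Nsf at 34.9 ± 5.97. All 16 further AMPA receptor partners were detected, led by Nptxr, the neuronal pentraxin receptor, at 53.5 ± 0.940, Abhd12 at 32.1 ± 5.02, Cnih1 at 18.6 ± 4.41 and Shisa9 at 14.8 ± 3.83. The 9 RNA editing and splicing genes were all detected, led by Rbfox1 at 34.9 ± 8.08, Ptbp2 at 32.6 ± 8.96, Elavl4 at 26.8 ± 6.99 and Nova1 at 26.0 ± 6.97. Of all protein-coding genes 53.8% passed the same rule. The lists were chosen with earlier results of these data known, so their detected counts are descriptive only. The median level was 19.0 TPM for synthesis and clearance, 11.6 for scaffolds, 10.4 for AMPA receptor partners and 16.3 for editing and splicing genes, against 7.71 for the 37 members.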

How the data were processed

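The values come from 2 gene and 2 transcript tables, which the authors made on assembly mm10 with GENCODE release M4, per the files deposited beside them; aligner and quantifier: not given in the sources used here. Estimated counts, as deposited by the authors, divide reads among transcripts and need not be whole; they were rounded for scaling. TPM per gene and transcript, FPKM (an alternative only), the percent of a gene in each transcript and the credibility bounds of TPM were used as deposited. Symbols, transcript classes and exons came from GENCODE M21 (GRCm38), which matched all 37 members and 115 of their 123 transcripts; 21 of the 115 differ in length between the releases. Depth was 46119077 and 72011312 counts on Ensembl genes.

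Levels are mean ± SD over the libraries. Pairs were compared within a library as log2 of TPM + 0.1 and called at 2-fold in both. Ratios between libraries used edgeR 4.0.16 (R 4.3.3) TMM scaling with a prior count of 0.5 over 18554 genes, tested on simulated data; DESeq2 1.42.0 size factors were an alternative. The labels call the isolates independent biological replicates, and SDs measure the spread of these 2 only. Intervals and limits for 0 counts cover counting error only. The members, gene lists, pairs and markers were chosen with earlier results of these data known. By rule the text names all 37 members, the 4 highest genes of each other list with any below 1 TPM in both libraries, the leading transcript of members and second transcripts at 20% or more in both, and the 3 highest markers; the text keeps to it except that it names no transcript of single-transcript members and the 3 highest markers only of the midbrain, cerebellar, hindbrain, cortical and oligodendrocyte lists. Some other markers, Tmem259 and other transcripts were named after their values were seen. The value of 1 gene that the rule would name is not reported here.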

Additional observations from a re-analysis of the deposited data

How the results depend on the processing

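The detected count, the 21 pairs, the leading transcripts and the other gene lists kept their counts within 1.5-fold under every alternative run; 15 pairs were called with a pseudocount of 0.01 TPM or with FPKM, and 12 at 4-fold or with coding transcripts only. Leaving out a library moved the pairs called from 14 to between 14 and 16. The number of members at least 2-fold apart between the libraries was 1 (Grin3b), 2 for TPM without scaling (Grin3b and Slc17a8), 0 with a summed count of at least 100 (fewer genes tested) and 4 at a 1.5-fold threshold (with Cacng5, Cacng7 and Slc17a8). By estimated counts in place of TPM, the flip share of Gria2 was 18.2%, against 37.5%, and the share with neither exon was 34.4% for Gria2, against 55.0%, and 41.3% for Gria4, against 63.8%; counts weight long transcripts more. With the deposited posterior mean TPM the share of Gria1 with neither exon was 4.27%, against 0%; the cause was not tested. The log2 ratio of Grik2 over Grik1 reversed to -0.045 with coding transcripts only, since 6 Grik2 transcripts were then dropped; Grik2 over Grik3, at 0.065, and Gria2 over Gria1, at 0.24, lost their 2-fold call there, and Grm7 over Grm8, at 1.22, gained one. The alternatives on transcripts of at least 1000 bases, on the Grin1 exons, on posterior means for exon shares and on the share with neither exon were chosen after seeing the data. No paired analysis was possible because the labels define 1 group. With 84 counts for Slc17a7 and 21 for Grin3b in replicate 1, depth limits the ratios of the lowest members.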

Other observations

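Many of the 37 genes are long. Their median span from the first to the last annotated base was 108 kb, against 26.1 kb for the 11551 detected protein-coding genes, and 30 members lay above that median. The spans ran from 5.65 kb for Cnih2, the member with the highest TPM, to 922 kb for Grm7 at 10.4 ± 1.30 TPM.

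The levels of 3 pairs of members that lie near each other on a chromosome are given as values, without a comparison with other gene pairs. Cacng4 (mm10, chr11:107732357-107794557, minus strand) and Cacng5 (chr11:107874605-107915055, minus strand) lie 80.0 kb apart, and their mean TPM differed 4.06-fold. Cacng7 (chr7:3332955-3368221, plus strand) and Cacng8 (chr7:3390683-3415648, plus strand) lie 22.5 kb apart and differed 1.96-fold. Slc17a7 and Grin2d, 656 kb apart on chr7, differed 23.6-fold. Of the 37 members 8 are on chr7.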
